A study of Mus musculus with 16 samples.

Results

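The genes described here were 10 members of the ADAMTS family, the secreted zinc metalloproteases that carry thrombospondin repeats. They were Adamts1, Adamts2, Adamts4, Adamts5, Adamts7, Adamts9, Adamts12, Adamts13, Adamts14 and Adamts15, out of 36451 gene names on the array. They were found by gene name among the non-control spots of the array, which held 15 probes for them out of 55681. The group was selected on measured values, since it was put together because both probes of Adamts13 differ between the genotypes in opposite directions. Differences between genotypes are therefore given for these genes as a description, without p-values, and support nothing. The CCl4 responses, and the difference of those responses between genotypes, were tested. For Adamts13 the difference of the responses is computed from the same genotype differences that chose the genes, so nothing is read from it.

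ADAMTS enzymes are made as inactive precursors, are cut by furin-like convertases and then act outside the cell on matrix and plasma proteins. ADAMTS2 and ADAMTS14 remove the amino-terminal propeptide of fibrillar procollagens, which is needed before collagen fibrils can form. ADAMTS1, ADAMTS4, ADAMTS5, ADAMTS9 and ADAMTS15 cut the large proteoglycans aggrecan and versican, and ADAMTS7 and ADAMTS12 cut cartilage oligomeric matrix protein. ADAMTS13 cuts von Willebrand factor, the plasma protein that tethers platelets, and in the liver it is made mainly by hepatic stellate cells, the pericytes that become collagen-producing myofibroblasts after injury.

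RNA from whole liver of male BALB/c mice was measured on 16 one-colour Agilent arrays. The mice were 6 to 8 weeks old when treatment began. WT mice were compared with Lcn2-/- mice, a knockout of lipocalin 2 in the whole animal. Each genotype was given either corn oil (control) or CCl4, a hepatotoxin, diluted in corn oil. CCl4 was injected intraperitoneally at 0.5 ml/kg, 2 times a week for 4 weeks, and tissue was taken 48 h after the last dose. Of the WT arrays 4 were controls and 5 were from CCl4-treated mice, and of the Lcn2-/- arrays 3 were controls and 4 were from CCl4-treated mice. The knockout line was made in a 129/Ola and C57BL/6 background and then backcrossed to BALB/c, and Lcn2 lies on chromosome 2, as Adamts13 does.

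Between 51.6% and 60.9% of the spots on an array were well above background by the scanner software, and none of the gene spots was saturated. The Lcn2 probe read 13.80 to 17.57 in WT and 10.46 to 12.25 in Lcn2-/- on the log2 scale. It was well above background on every array, those of Lcn2-/- included. The arrays lay on 2 slides. Slide 1 held all controls and WT CCl4 replicate 1, and slide 2 held every other CCl4 array, so that CCl4 and slide can be told apart only through that 1 array. By position on the slide, WT arrays were in tier 1 and Lcn2-/- arrays in tier 2, except WT CCl4 replicate 1 in tier 2. Genotype and tier can therefore also be told apart only through that array. WT control replicate 3 and Lcn2-/- control replicate 3 were the controls closest to CCl4-treated livers, and results were also computed without them.

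Values below are log2 quantile-normalized signals, and a difference of 1 on this scale is a doubling. Probes are named by the gene and by the transcript position of their first base. A probe was tested if it was well above background on at least 3 of 16 arrays, which left 33014 probes. Of the 15 ADAMTS probes, 12 were tested, covering 9 of the 10 genes. The 3 probes left out were both Adamts12 probes, well above background on 0 and 2 arrays, and Adamts14 2660, well above background on 1 array. A probe was called at a limma p-value under 0.05 after Benjamini-Hochberg adjustment over all probes tested.

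Both Adamts13 probes are shown first because they carry the pattern that brought these genes together. Adamts13 3066 lies at chr2:26852318-26852377 and Adamts13 3891 at chr2:26862185-26862244, both on the plus strand of the mm9 build that the array files use. They are 60 bases long and are written in lower case, 5′ to 3′, with no part singled out. The files list 2 transcripts for the first probe and 1 for the second, and do not say whether the probes are exonic. They lie 5.39 and 5.38 Mb from the Lcn2 probe.

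Adamts13 3066: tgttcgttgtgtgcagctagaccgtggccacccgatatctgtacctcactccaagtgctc

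Adamts13 3891: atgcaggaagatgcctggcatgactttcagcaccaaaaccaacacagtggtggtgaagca

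Adamts13 3066 was high in every WT array and low in every Lcn2-/- array. The 4 WT control arrays read 8.81, 8.99, 8.99 and 9.20, and the 3 Lcn2-/- control arrays read 5.46, 4.48 and 5.21, all 3 not well above background. Under CCl4 the 5 WT arrays read 9.19, 9.22, 8.98, 9.0 and 8.78 and the 4 Lcn2-/- arrays read 6.51, 5.64, 7.22 and 6.09. The genotypes did not overlap in either treatment. The signal was at least 11.1-fold lower in Lcn2-/- than in WT in controls, where the mean of the dimmer group was raised to the lowest signal that counted as well above background on each array. Under CCl4, where all arrays measured it, the log2 difference was -2.67, a 6.37-fold lower signal. These sizes depend on the background correction, and with normexp the log2 differences were -2.31 in controls and -1.84 under CCl4.

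Adamts13 3891 went the other way. The 4 WT control arrays read 2.89, 2.89, 2.89 and 3.24 and the 5 WT CCl4 arrays 2.90, 2.89, 4.25, 2.88 and 2.88, none of them well above background. The 3 Lcn2-/- control arrays read 7.97, 7.47 and 8.16 and the 4 Lcn2-/- CCl4 arrays 8.49, 8.17, 8.71 and 8.38, all well above background. The signal was thus at least 7.87-fold higher in Lcn2-/- than in WT in controls and at least 12.8-fold higher under CCl4. With normexp the log2 differences were 1.92 in controls and 2.49 under CCl4, and the deposited values gave 2.98 and 3.83. Probes whose genotypes do not overlap made up 9.47% of all probes in controls and 5.32% under CCl4.

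Within slide 2 alone, with 4 arrays of each genotype, the log2 differences were -2.63 for Adamts13 3066 and 5.21 for Adamts13 3891. Across the 16 arrays the signals of both probes had a Pearson correlation of -0.902, and after each group's mean was removed the correlation was 0.382. Adamts13 is known to differ between mouse strains. BALB/c and C57BL/6 carry a retrotransposon inside the gene that ends the transcript early, and 129 strains lack it. The strain of origin of the Adamts13 region in the knockout mice, and its part in the difference, was not tested.

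**Figure D1:**
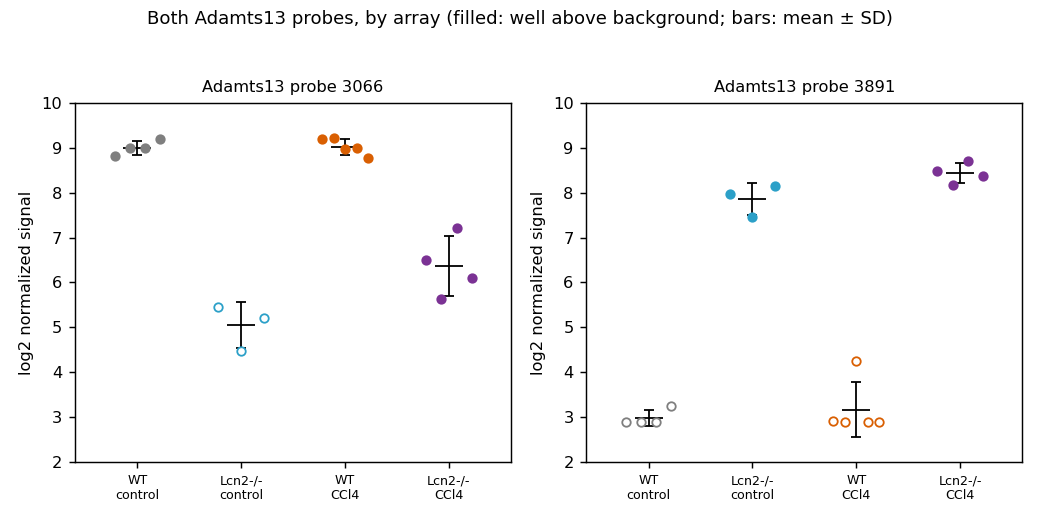
Log2 normalized signal of both Adamts13 probes in each array, by group, with the mean and SD as bars and arrays not well above background as open points. Adamts13 3066 read 8.78 to 9.22 in WT and 4.48 to 7.22 in Lcn2-/-, while Adamts13 3891 read 2.88 to 4.25 in WT and 7.47 to 8.71 in Lcn2-/-.

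The CCl4 response of Adamts13 3066 was not called in WT, at 0.04 (SE 0.266, limma's adjusted p = 0.947). In Lcn2-/- the same probe, with no control array well above background, rose at least 1.80-fold (limma's adjusted p = 0.0121). That bound holds for the reported normalization only, and the fitted log2 difference ran from 0.51 to 1.56 over all alternatives. Leaving out 1 array at a time gave 1.03 to 1.56. The call was lost without Lcn2-/- control replicate 2 (limma's adjusted p = 0.0763), with slide as a block (adjusted p = 0.213), with 75th percentile scaling (adjusted p = 0.0511) and with normexp background correction (adjusted p = 0.0561). The difference between the responses of the genotypes was not called (limma's adjusted p = 1, unadjusted p = 0.00677). It rests on the dim Lcn2-/- controls and on the values that chose these genes, and nothing is read from it. Adamts13 3891 had no measurable level in WT, and in Lcn2-/- its 4 CCl4 arrays all lay above its 3 controls, by 0.57 on average (SE 0.297, limma's adjusted p = 0.246).

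By Pearson correlation over the 16 arrays, the 5 genes whose signal most resembled Adamts13 3066 were Pebp1, Gpat3, Ccdc173, D930016D06Rik and LOC100046877, with r from 0.941 to 0.958. Ccdc173 and LOC100046877 lie on chromosome 2 and the other 3 on chromosome 5. The genes most like Adamts13 3891 were Olfr1052, Oas1a and Olfr1033, with r of 0.989, 0.988 and 0.982, followed by an unnamed transcript on chromosome X and Oas1f. Olfr1052 and Olfr1033 lie on chromosome 2, and Oas1a and Oas1f on chromosome 5. For Adamts2 1528 the most similar were Bgn, Nav1, Crat, an unnamed region on chromosome 1 and Nid1, with r from 0.921 to 0.949. That probe had no control array well above background and was picked on its fitted difference in WT. The filter fixed the direction of that difference, so nothing is read from the choice. These correlations describe 16 arrays that fall into 4 groups and carry no test.

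For these 10 genes together the question was whether CCl4 changed them and whether it did so in both genotypes. The counts do not cover the 9 further ADAMTS genes on the array, given below, of which Adamts8 fell in both genotypes through 1 probe. In WT, 5 of the 9 genes tested rose and 0 fell, namely Adamts2, Adamts5, Adamts9, Adamts14 and Adamts15, through 5 of 10 probes. In Lcn2-/-, 6 genes rose and 0 fell, namely Adamts2, Adamts5, Adamts7, Adamts9, Adamts13 and Adamts15, through 6 of the 10. Of all probes tested, 15% were called in WT, 7.34% higher and 7.65% lower. In Lcn2-/- the share was 11.1%, with 6.16% higher and 4.93% lower. Adamts2, Adamts5, Adamts9 and Adamts15 were called in both genotypes. Adamts2 1528 and Adamts5 1861, with 0 and 1 control arrays well above background, passed the filter only through CCl4 arrays and so had to be higher there. They are left out of the counts of probes for the CCl4 responses, and no CCl4 difference or test is given for them. Adamts2 was called through Adamts2 3661 and Adamts5 through Adamts5 8044.

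Over the other 10 probes, where both groups held arrays well above background, the differences ran from 0.04 to 2.15 in WT and from 0.57 to 2.13 in Lcn2-/-. The median was 0.86 in WT, over 9 probes without Adamts13 3891, which had no measurable level there, against -0.03 over all probes. In Lcn2-/- the median of the 10 probes, with Adamts5 8044 and Adamts13 3066 at their lower bounds, was 1.04, against -0.02 over all probes. Control and CCl4 arrays did not overlap for 3 of 10 probes in WT, where 16.5% of all probes did not overlap. In Lcn2-/-, with 3 against 4 arrays, none of the 10 probes overlapped, where 23.8% of all probes did not. In whole liver, more cells of a type and more RNA per cell cannot be told apart.

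No ADAMTS probe was called for a difference between the responses of the genotypes. By limma 0 of 12 probes passed, where 0.0333% of all probes did. At an unadjusted p under 0.05 only Adamts9 5618 and Adamts13 3066 did, where 3.29% of all probes did. The part of Adamts13 in that count uses the values that chose the genes and supports nothing. With no probe called here, a member called in 1 genotype alone was not shown to respond differently in the other.

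**Figure D2:**
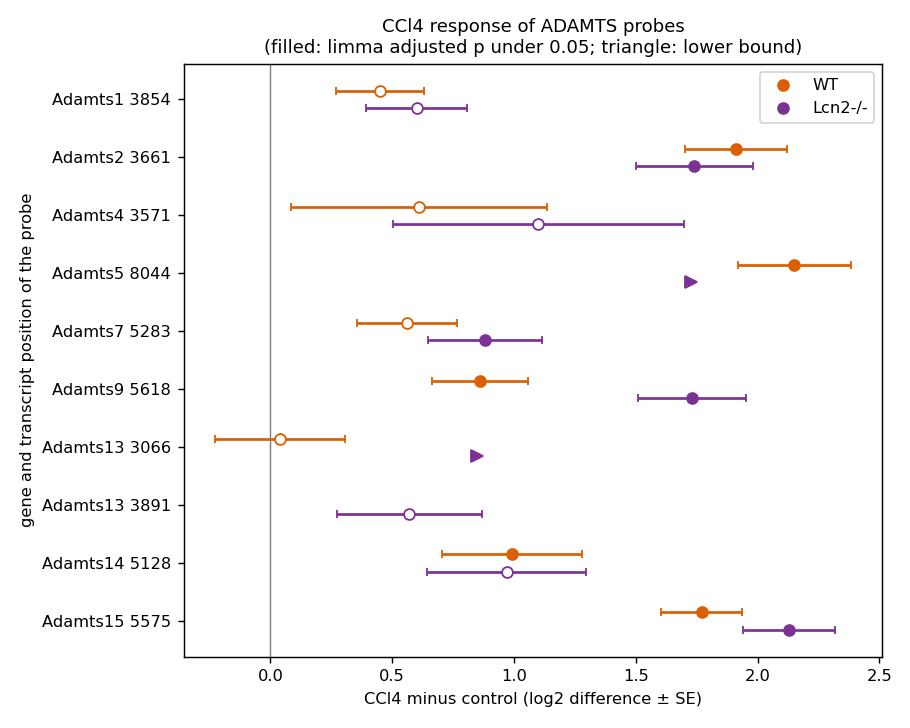
Log2 difference between CCl4 and control arrays with its SE for 10 of the 12 ADAMTS probes tested, without Adamts2 1528 and Adamts5 1861, in WT and in Lcn2-/-, with filled points for a limma adjusted p under 0.05, and triangles, without SE, at the lower bound where all control arrays were dim. Measured differences run from 0.04 to 2.15 in WT and from 0.57 to 2.13 in Lcn2-/-, and no point is drawn for Adamts13 3891 in WT, where it had no measurable level.

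Of the procollagen N-propeptidases, Adamts2 rose in both genotypes and Adamts14 in WT. Adamts2 3661 (chr11:50617472-50617531, plus strand, mm9) was well above background on all 16 arrays. Its WT arrays read 12.01, 11.35, 12.32 and 11.99 in controls and 14.03, 14.04, 14.08, 13.75 and 13.24 under CCl4. Its Lcn2-/- arrays read 11.56, 11.34 and 11.43 in controls and 12.95, 13.32, 13.50 and 12.96 under CCl4. Every CCl4 array was above every control array in both genotypes. The rise was 1.91 in WT (SE 0.210, limma's adjusted p = 4.31e-05), a 3.76-fold change, and 1.74 in Lcn2-/- (SE 0.239, limma's adjusted p = 4.04e-04), a 3.34-fold change.

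That rise of Adamts2 3661 was called under every alternative, with adjusted p-values up to 0.0374. WT CCl4 replicate 1, on the slide of the controls, lay 2.11 above the mean of the WT controls. Adamts2 1528 (chr11:50590188-50590247) was dim. None of its 7 control arrays was well above background, against 4 of 5 WT CCl4 and 2 of 4 Lcn2-/- CCl4 arrays. It read 2.92 to 4.96 in WT controls, 4.46 to 7.47 in WT under CCl4, 2.92 to 3.12 in Lcn2-/- controls and 3.83 to 6.87 in Lcn2-/- under CCl4.

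Adamts14 5128 (chr10:60659860-60659919, minus strand) read 8.36, 8.16, 9.83 and 8.58 in WT controls and 9.49, 10.22, 9.69, 9.45 and 9.74 in WT under CCl4. In Lcn2-/- it read 8.66, 8.37 and 9.14 in controls and 9.58, 9.86, 9.70 and 9.62 under CCl4. WT control replicate 3, at 9.83, was above 4 of the 5 WT CCl4 arrays, while in Lcn2-/- the treatments did not overlap. The differences were nearly the same size, 0.99 in WT (SE 0.287, limma's adjusted p = 0.0325) and 0.97 in Lcn2-/- (SE 0.326, limma's adjusted p = 0.0737). The WT call was lost without WT control replicate 1 (0.86, adjusted p = 0.114), 2 (0.79, 0.118) or 4 (0.93, 0.0751), or without WT CCl4 replicate 2 (0.86, 0.0775), 3 (0.99, 0.0518) or 5 (0.98, 0.0567). With slide as a block it was 0.75 (limma's adjusted p = 0.413), and the replicate block lost the call too. Counting every alternative, the WT response was called in 18 of 27. Without WT control replicate 3 the probe was called in Lcn2-/- as well (0.97, limma's adjusted p = 0.00822). Adamts14 2660, the other probe, read 3.42 to 4.94 over the 16 arrays.

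**Figure D3:**
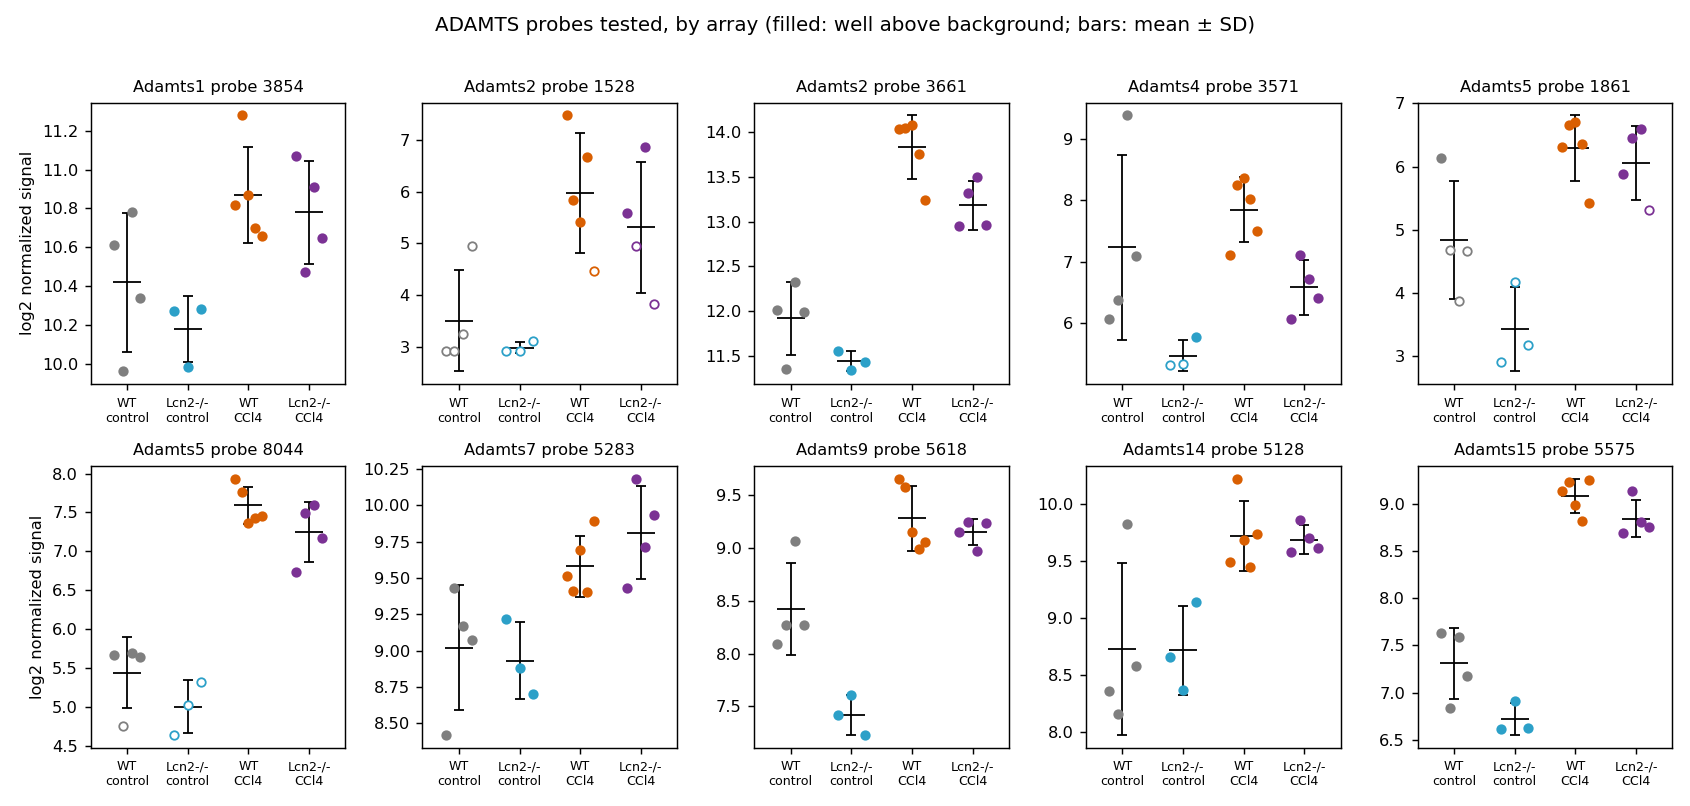
Log2 normalized signal of the 10 tested probes of the genes other than Adamts13, in each array and by group, with the mean and SD as bars and arrays not well above background as open points. Every panel has its own axis, since levels of different probes are not comparable. CCl4 and control arrays do not overlap in either genotype for Adamts2 3661, Adamts5 8044 and Adamts15 5575.

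Among the proteoglycan-cutting members, Adamts15 had the smallest adjusted p-values for a CCl4 response of all ADAMTS probes tested. Adamts15 5575 (chr9:30707033-30707092, minus strand) read 7.63, 6.84, 7.59 and 7.18 in WT controls and 9.13, 9.23, 8.99, 8.82 and 9.25 in WT under CCl4. In Lcn2-/- it read 6.61, 6.91 and 6.63 in controls and 8.69, 9.13, 8.80 and 8.75 under CCl4. The gap between the highest control and the lowest CCl4 array was over 1 in both genotypes. The rise was 1.77 in WT (SE 0.166, limma's adjusted p = 1.44e-05) and 2.13 in Lcn2-/- (SE 0.189, limma's adjusted p = 1.42e-05), or 3.42-fold and 4.36-fold. It was called under every alternative, with values from 1.36 to 1.88 in WT and from 1.53 to 2.22 in Lcn2-/-, and WT CCl4 replicate 1 lay 1.82 above the WT control mean.

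Adamts5, a main aggrecanase of cartilage, rose in both genotypes through Adamts5 8044. The probe (chr16:85858402-85858461, minus strand) read 5.67, 4.75, 5.69 and 5.64 in WT controls and 7.93, 7.76, 7.37, 7.43 and 7.46 in WT under CCl4. In Lcn2-/- it read 4.64, 5.03 and 5.32 in controls, none well above background, and 6.73, 7.49, 7.60 and 7.17 under CCl4. The treatments did not overlap in either genotype. The rise was 2.15 in WT (SE 0.232, limma's adjusted p = 3.71e-05), a 4.45-fold change, and at least 3.31-fold in Lcn2-/- (limma's adjusted p = 1.18e-04). It was called under every alternative, but its size depends on the processing. Fitted log2 values ran from 1.20 to 2.49 in WT and from 1.13 to 2.67 in Lcn2-/-, so the bound holds for the reported normalization only.

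Adamts5 1861 (chr16:85899450-85899509) was dim, with 1 of 4 WT control and 0 of 3 Lcn2-/- control arrays well above background. Under CCl4 5 of 5 WT and 3 of 4 Lcn2-/- arrays were. It read 3.88 to 6.13 in WT controls, 5.42 to 6.71 in WT under CCl4, 2.92 to 4.18 in Lcn2-/- controls and 5.32 to 6.59 in Lcn2-/- under CCl4.

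Adamts9, which cuts versican and aggrecan, rose in both genotypes. Adamts9 5618 (chr6:92723051-92723110, minus strand) read 8.09, 8.27, 9.06 and 8.27 in WT controls and 9.65, 9.57, 9.15, 8.99 and 9.05 in WT under CCl4. In Lcn2-/- it read 7.42, 7.61 and 7.23 in controls and 9.15, 9.24, 8.97 and 9.23 under CCl4. All 3 Lcn2-/- controls were below all 4 WT controls, while under CCl4 the genotypes overlapped. The rise was 0.86 in WT (SE 0.196, limma's adjusted p = 0.00854) and 1.73 in Lcn2-/- (SE 0.223, limma's adjusted p = 2.42e-04), and both were called under every alternative. The difference of the responses was 0.86 (SE 0.296, unadjusted p = 0.0111 by limma, adjusted p = 1). The genotype difference was -1.0 in controls and -0.14 under CCl4.

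Adamts1 and Adamts4 were not called in either genotype. Adamts1 3854 (chr16:85795044-85795103, minus strand) differed by 0.45 in WT (SE 0.182, limma's adjusted p = 0.117) and, in Lcn2-/-, by 0.60 (SE 0.207, limma's adjusted p = 0.0788), with means of 10.42 and 10.87 in WT and 10.18 and 10.78 in Lcn2-/-. Array weights put the Lcn2-/- difference past the threshold (0.61, limma's adjusted p = 0.0221).

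Adamts4 3571 (chr1:173189952-173190011, plus strand) was the most variable member among WT controls, at 6.06, 6.38, 9.38 and 7.09, an SD of 1.50. The WT CCl4 arrays read 7.11, 8.24, 8.36, 8.02 and 7.49. The Lcn2-/- controls read 5.32, 5.33 and 5.77, the last of them alone well above background, and the Lcn2-/- CCl4 arrays read 6.06, 7.11, 6.72 and 6.41. WT control replicate 3, at 9.38, was above every WT CCl4 array. The response was 0.61 in WT (SE 0.525, limma's adjusted p = 0.474), and 1.33 (limma's adjusted p = 0.0110) without that array. In Lcn2-/- the treatments did not overlap and the difference was 1.10 (SE 0.598, limma's adjusted p = 0.266). The Lcn2-/- minus WT difference of Adamts4 was -1.75 in controls, where the genotypes did not overlap, and -1.04 without WT control replicate 3. Under CCl4, where they overlapped, it was -1.27.

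The COMP-cutting member with a measurable signal was Adamts7. Adamts7 5283 (chr9:90094878-90094937, plus strand) read 8.42, 9.43, 9.17 and 9.07 in WT controls and 9.51, 9.41, 9.69, 9.40 and 9.89 in WT under CCl4. In Lcn2-/- it read 9.22, 8.88 and 8.70 in controls and 9.43, 10.18, 9.71 and 9.93 under CCl4. WT control replicate 2 lay among the CCl4 arrays, and the Lcn2-/- arrays did not overlap. The difference was 0.56 in WT (SE 0.206, limma's adjusted p = 0.0840) and 0.88 in Lcn2-/- (SE 0.234, limma's adjusted p = 0.0261). The Lcn2-/- call was lost without Lcn2-/- control replicate 2 (0.85, limma's adjusted p = 0.0927) or 3 (0.76, 0.0853), without Lcn2-/- CCl4 replicate 2 (0.76, 0.0645) or 4 (0.84, 0.0549), without both controls closest to CCl4 (0.76, 0.0889), and with slide as a block (0.80, 0.400).

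Adamts12 was close to the background in every group. Adamts12 576 read 2.88 to 3.06 over the 16 arrays, with none well above background. Adamts12 4727 was well above background on WT CCl4 replicates 2 and 4 alone, at 4.56 and 4.64, and read 3.51 to 5.20 over all arrays. No fold change is given for it.

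Apart from Adamts13, genotype differences of the tested probes were mostly of overlapping arrays. In controls the signals did not overlap for 4 of 12 probes, namely both Adamts13 probes, Adamts4 3571 and Adamts9 5618, where 9.47% of all probes did not. Under CCl4 they did not overlap for 2 of 12 probes, both of Adamts13, where 5.32% of all probes did not. By limma 1 of 9 genes, Adamts13, passed the threshold in each comparison, where 0.485% of all probes did in controls and 0.524% under CCl4. The genes were brought together on this difference, so their choice fixed the part of Adamts13 in all these counts. Setting the counts against the shares of all probes is therefore no test, and nothing is read from it. Without Adamts13, and over probes measured in both genotypes, the differences ran from -1.75 to -0.01 in controls and from -1.27 to 0.23 under CCl4. Without WT control replicate 3 those in controls ran from -1.04 (Adamts4) to 0.36 (Adamts14 5128). Adamts2 3661 stood at -0.48 and -0.65, Adamts15 at -0.59 and -0.24, and Adamts14 5128 at -0.01 and -0.03, each in controls and then under CCl4.

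Few probes of the remaining ADAMTS enzymes were measurable. Of 9 further genes with 12 probes, 4 probes of Adamts8, Adamts10 and Adamts18 were tested. With 1 probe per gene, 1 rose and 1 fell in WT (median -0.66) and 1 fell in Lcn2-/- (median -0.68). Adamts10, which binds fibrillin microfibrils, rose by 1.58 in WT (SE 0.464, limma's adjusted p = 0.0344, with the signal above background in 2 of 4 controls) and differed by 0.75 in Lcn2-/- (limma's adjusted p = 0.400). The Adamts8 probe at position 902, well above background on all 16 arrays, fell by 0.66 in WT (limma's adjusted p = 0.0400) and by 0.85 in Lcn2-/- (limma's adjusted p = 0.0267). The Adamts8 probe at position 3572 was well above background on 6 arrays, 1 of them a control, so that it passed the filter only through CCl4 arrays and no difference is given for it.

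The ADAMTS-like proteins share the thrombospondin repeats but have no protease domain. Of 7 genes, 5 were tested with 1 probe each, and 4 rose in WT and 3 in Lcn2-/-, with medians of 1.14 and 1.66 against -0.03 and -0.02 over all probes. Papln passed the filter only through CCl4 arrays and so had to be higher there, and without it 3 rose in WT and 2 in Lcn2-/-, with medians of 1.33 and 1.31. Adamtsl1 rose by 1.85 (SE 0.175, limma's adjusted p = 1.44e-05) and 1.66 (SE 0.199, limma's adjusted p = 1.41e-04), in WT and Lcn2-/- respectively. Adamtsl2, which binds latent TGF-beta binding protein, rose by 1.62 (SE 0.226, limma's adjusted p = 2.52e-04) and 1.74 (SE 0.257, limma's adjusted p = 6.94e-04). Papln was well above background on 1 of 7 control arrays and on all 9 CCl4 arrays, and no difference is given for it. Adamtsl5 rose by 1.05 in WT (limma's adjusted p = 0.0372) against 0.97 in Lcn2-/- (adjusted p = 0.0992). Adamtsl2 was lower in Lcn2-/- than in WT by 1.94 in controls (limma's adjusted p = 0.00162) and by 1.83 under CCl4 (limma's adjusted p = 9.47e-04), with no overlap in either. Of all probes tested, 0.485% were called for a genotype difference in controls and 0.524% under CCl4. The place of Adamtsl2 relative to Lcn2 and the strain of origin of its region were not examined, and the cause of the difference was not tested.

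Of 13 genes of fibrillar procollagens and their propeptide processing, 11 were tested, and 6 rose in WT and 5 in Lcn2-/-, with none called lower and medians of 1.09 and 1.17. Those that rose were Col1a1, Col1a2, Col3a1, Col5a1 and Pcolce in both genotypes and Col5a2 in WT. For this list and those below, 7.34% of all probes tested were called higher in WT and 6.16% in Lcn2-/-, with medians of -0.03 and -0.02. Pcolce is an enhancer of carboxy-terminal propeptide removal and no substrate of the N-propeptidases. Col1a1, the main fibrillar collagen chain of scar, rose by 3.49 in WT (SE 0.452, limma's adjusted p = 1.47e-04) and, in Lcn2-/-, by 4.21 (SE 0.515, limma's adjusted p = 1.61e-04). Col1a2 rose by 2.89 and 2.98 and Col3a1 by 2.64 and 3.20, in that order of genotypes. Col5a2 rose by 2.25 in WT (limma's adjusted p = 0.00368), and differed by 1.42 in Lcn2-/- (limma's adjusted p = 0.0927), where 1 of 3 controls was well above background. Bmp1 and Tll1, the enzymes that remove the opposite, carboxy-terminal propeptide, differed by -0.12 and 0.09 in WT and were not called. Col5a3 differed by -0.28 and -0.08, Col11a2 by 0.11 and 0.44 and Pcolce2 by -0.66 and -1.10, in WT and Lcn2-/-, and none of them was called.

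Of 9 further substrates 8 rose in WT and 6 in Lcn2-/-, where 7.34% and 6.16% of all probes were called higher. Again none was called lower, and the medians were 1.10 and 1.19, against -0.03 and -0.02 over all probes. Comp is among those counted in WT but passed the filter only through CCl4 arrays, and without it 7 rose in WT and 6 in Lcn2-/-, with medians of 1.07 and 1.24. Thbs2, a matricellular thrombospondin, rose by 2.49 (SE 0.181, limma's adjusted p = 1.87e-06) and 3.10 (SE 0.206, limma's adjusted p = 9.54e-07), Thbs1 by 2.27 and 2.34, and Fbn1, the main fibrillin, by 1.70 and 2.15. Comp, the substrate of ADAMTS7 and ADAMTS12, was well above background on 1 of 4 controls and 4 of 5 CCl4 arrays in WT and on no Lcn2-/- array, and no difference is given for it.

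Of 11 aggregating proteoglycans and hyaluronan partners, 7 were tested, with medians of 0.34 and 0.65, and 1 rose and 1 fell in WT while 1 rose in Lcn2-/-. Without Hapln1 and Has1, which passed the filter only through CCl4 arrays and were not called, the medians were -0.31 and 0.04. Vcan, which encodes versican, fell by 0.72 in WT (SE 0.193, limma's adjusted p = 0.0221) and differed by -0.44 in Lcn2-/- (limma's adjusted p = 0.226). Acan, which encodes aggrecan, differed by 0.34 and 0.65 (limma's adjusted p = 0.256 and 0.0690). Hapln4, a link protein, rose by 1.07 (limma's adjusted p = 0.0406) and 2.12 (limma's adjusted p = 0.00230), the second with 2 of 3 controls well above background.

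**Figure D4:**
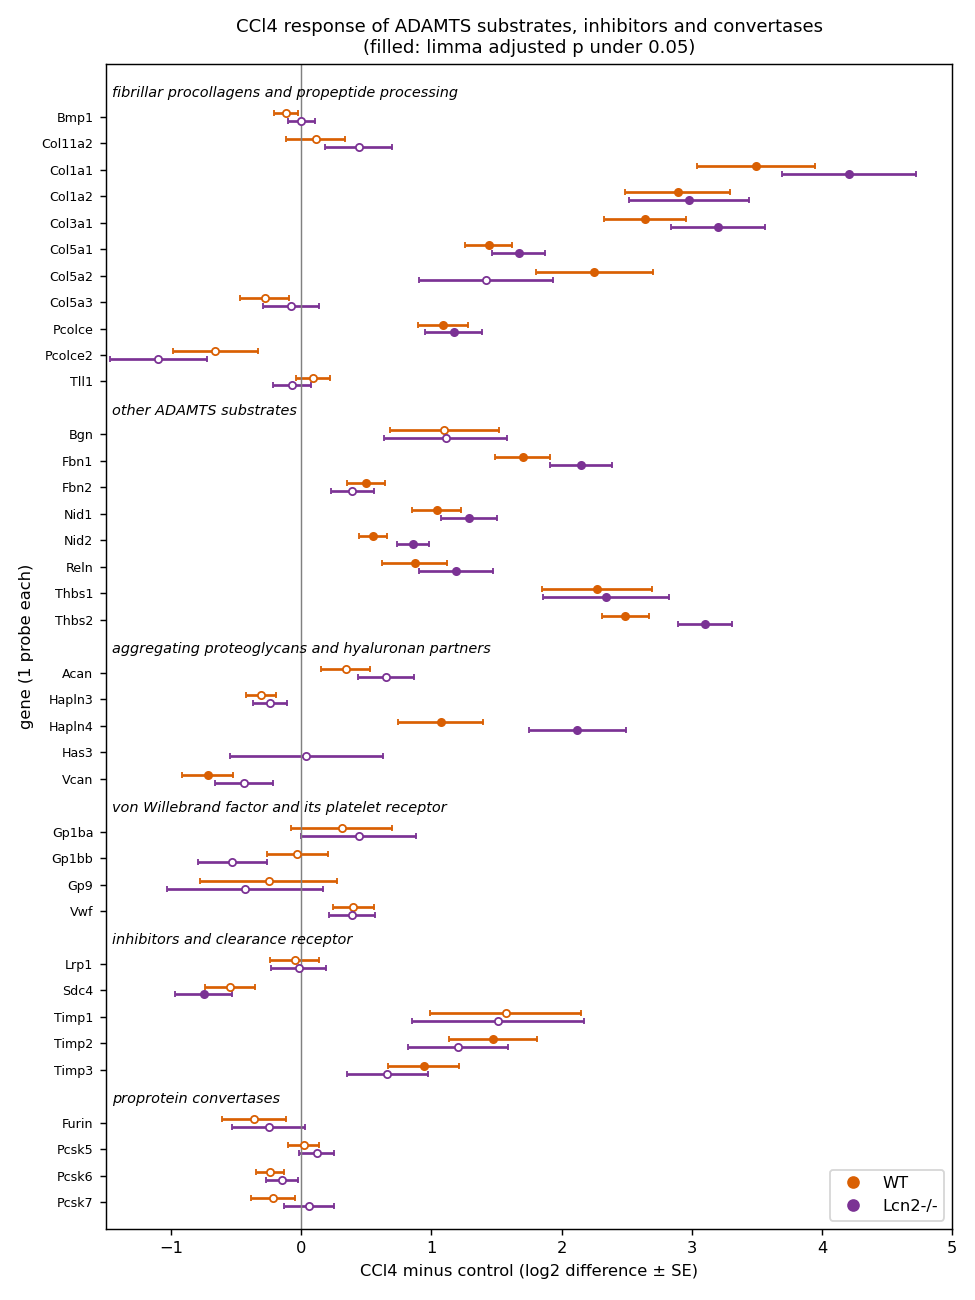
Log2 difference between CCl4 and control arrays with its SE for genes that encode ADAMTS substrates, inhibitors and activating convertases, in WT and Lcn2-/-, with filled points for a limma adjusted p under 0.05. Comp, Hapln1 and Has1 are left out, and no point is drawn where a group had no array well above background. Col1a1 has the highest values, 3.49 and 4.21, and none of the genes of the von Willebrand factor and convertase groups is filled.

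The substrate of ADAMTS13 was not called. Vwf differed by 0.40 in WT (SE 0.158, limma's adjusted p = 0.109) and, in Lcn2-/-, by 0.39 (SE 0.180, limma's adjusted p = 0.192), and none of the 4 genes tested of von Willebrand factor and its platelet receptor passed in either genotype, with medians of 0.14 and -0.02. Among 5 inhibitors and clearance receptors tested of 7, with medians of 0.94 and 0.66, Timp2 rose by 1.47 in WT (limma's adjusted p = 0.00884) and Timp3, the inhibitor of ADAMTS4 and ADAMTS5, by 0.94 in WT (SE 0.272, limma's adjusted p = 0.0324) against 0.66 in Lcn2-/- (adjusted p = 0.194). Timp1 differed by 1.57 and 1.51 (limma's adjusted p = 0.0858 and 0.164), and Sdc4, a cell surface proteoglycan that binds ADAMTS enzymes, fell by 0.75 in Lcn2-/- (limma's adjusted p = 0.0400). Furin, Pcsk5, Pcsk6 and Pcsk7, the activating convertases, were not called in either genotype, with differences from -0.36 to 0.12 and medians of -0.23 and -0.04.

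Some markers of the cells that make matrix rose under CCl4 and others did not. Of all probes tested, 7.34% were called higher and 7.65% lower in WT, and 6.16% higher and 4.93% lower in Lcn2-/-. The mean log2 signal of 8 of 8 stellate cell markers was 10.54 to 10.91 over the controls of both genotypes, 11.15 to 11.48 in WT under CCl4 and 11.19 to 11.37 in Lcn2-/- under CCl4, and 5 of them rose and 1, Ecm1, fell in each genotype. The mean of 7 of 7 myofibroblast markers was 9.95 to 11.26, 9.72 to 10.35, 11.80 to 12.74 and 11.45 to 12.12 in WT controls, Lcn2-/- controls, WT under CCl4 and Lcn2-/- under CCl4. The mean of 6 of 6 portal fibroblast and mesothelium markers was 8.14 to 8.92, 7.92 to 8.19, 9.50 to 9.93 and 9.11 to 10.48 in that order. No control array reached the CCl4 arrays on the means of the stellate cell list and of the portal fibroblast and mesothelium list. The myofibroblast mean includes Lox, which had to be higher under CCl4 to pass the filter. It was not computed without Lox, so nothing is read from its gap. Of the myofibroblast markers 5 rose in WT and 4 in Lcn2-/-, namely Col1a1, Col3a1, Loxl1 and Postn in both and Lox, which passed the filter only through CCl4 arrays, in WT. Acta2, the smooth muscle actin of myofibroblasts, differed by 0.37 and 0.39, and Tagln by -0.79 and -0.85, in WT and Lcn2-/-, and neither was called. Of the portal fibroblast and mesothelium markers Eln and Mfap4 rose in both genotypes and Upk3b in WT, while Thy1 (0.03 and 0.91), Fbln2 and Msln were not called. The part of cell numbers in the rise of the ADAMTS genes was not tested.

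The mean of 7 of 7 hepatocyte markers was 17.75 to 18.25 over all groups, and none was called in either genotype. Of 6 neutrophil markers Camp, S100a8 and S100a9 rose in WT and 0 were called in Lcn2-/-, with no marker called for a difference of the responses, and the list mean ranged from 9.88 to 12.69 over the controls. Of 6 macrophage markers Cd68 rose by 2.12 in WT and by 1.84 in Lcn2-/-, while in WT Clec4f fell by 1.03 and Timd4 by 1.29. The mean of the macrophage list was 11.89 to 13.52 in controls and 12.34 to 12.63 under CCl4. Of 6 sinusoidal endothelium markers Lyve1 rose in both genotypes, by 1.52 in WT (limma's adjusted p = 0.0303) and by 1.92 in Lcn2-/- (limma's adjusted p = 0.0230), and Stab2 fell by 0.43 in WT (limma's adjusted p = 0.0361). Of 4 lymphocyte markers tested Cd3e fell by 0.88 in WT (limma's adjusted p = 0.0330), and none was called in Lcn2-/-. None of 4 platelet and megakaryocyte markers, 4 cholangiocyte markers and 2 tested markers of pancreas, adipose tissue or muscle was called in either genotype.

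Because Adamts2 and Adamts9 were called in both genotypes and have an upstream sequence among those at hand, the 250 bases before their start are shown, from RefSeq on the GRCm38.p6 build, each in the direction of its gene. Upstream sequences were at hand for 6 of the 10 genes, the others being Adamts1, Adamts12, Adamts13 and Adamts14. That of Adamts2 lies at chr11:50601835-50602084 on the plus strand and that of Adamts9 at chr6:92943535-92943784 on the minus strand. Capitals mark GGGCGG, the core of the GC box, on either strand.

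Adamts2: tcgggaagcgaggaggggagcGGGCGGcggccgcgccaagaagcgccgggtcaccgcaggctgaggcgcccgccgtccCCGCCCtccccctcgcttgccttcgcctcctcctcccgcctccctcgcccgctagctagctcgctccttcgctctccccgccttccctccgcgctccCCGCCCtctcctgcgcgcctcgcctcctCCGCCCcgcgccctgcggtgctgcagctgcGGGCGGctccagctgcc

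Adamts9: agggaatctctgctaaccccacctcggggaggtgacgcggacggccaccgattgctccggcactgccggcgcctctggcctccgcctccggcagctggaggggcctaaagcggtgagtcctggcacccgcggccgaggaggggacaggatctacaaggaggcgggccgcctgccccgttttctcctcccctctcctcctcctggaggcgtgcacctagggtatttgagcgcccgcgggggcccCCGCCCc

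The Adamts2 sequence held 5 such matches and was 78.0% G or C, and the Adamts9 sequence held 1 and was 71.2% G or C, against a median of 52.4% over 32851 upstream sequences of the same length. GGGCGG was in 4 of the 6 ADAMTS sequences and in 32.7% of all. The other motifs searched on both strands were GGAATG, found in the Adamts13 sequence alone and in 12.6% of all, TATAAA, found in that of Adamts1 and in 12.4% of all, and CCAAT and TGANTCA, found in none of the 6 and in 33.8% and 6.75% of all. These are matches of letters and not binding sites.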

How the data were processed

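Liver RNA was hybridised to 16 1-colour Agilent mouse arrays. The authors deposited the scanner intensity values of every spot, read with Agilent Feature Extraction 10.7, and a table of log2 values that the authors had background-subtracted and quantile normalized. That table ranked the spots of array 1 as the median signal minus local background did (Spearman 1). Here log2 of the processed signal, which the scanner software had background-corrected, was quantile normalized over the 16 arrays as the study's methods state, spots marked as outliers were left out, and spots of a probe were averaged. Each array held 62976 spots, 3671 of them controls, and 121 of 55681 probes had no unmarked spot on some array. The number of arrays limits the precision.

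Probes with a signal well above background on 3 arrays or more were fitted in limma 3.58.1 (R 4.3.3) with all 4 groups, and p-values were adjusted by Benjamini-Hochberg over all 33014 probes tested. The fit was tested on simulated data, from which no value is given or relied on here. P-values measure the spread between these samples, which may be in part technical. Deviations from the group means correlated between same-numbered WT and Lcn2-/- controls (0.201, 0.375 and 0.516), and from -0.248 to 0.269 in the other pairs of groups. There, no 2 groups correlated above 0.1 in every pair. Only the control comparison, from which nothing is read for ADAMTS genes, therefore counts as possibly paired. Differently numbered arrays of different groups correlated from -0.387 to 0.643, so the numbers were not shown to mark pairs. The fit with the number as a block called 1 ADAMTS gene in the control comparison, as did the fit without it. For list genes the probe with the highest mean was used. From each list up to 4 genes with the greatest change among those called were named, beside Vcan, Acan, Col1a1, Col1a2, Col3a1, Vwf, Timp3 and Timp1, and every probe of the ADAMTS genes was accounted for. The ADAMTS genes, the lists and the cell type markers were chosen with earlier results of these data known. Alternatives were 75th percentile scaling, normexp with an offset of 50, the deposited table, no filter and a filter at 8 arrays, 1 probe per gene, slide and replicate number as blocks, array weights, outlier spots kept, leaving out each array, and, chosen after seeing the data, leaving out both controls closest to CCl4.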

Additional observations from a re-analysis of the deposited data

Results flagged for a closer look

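Of 33 groups of 4 or 5 arrays in which a tested ADAMTS probe was detected, 1 held an array far from the others, where chance alone gives about 1 in 20. Adamts5 8044 in WT control replicate 2 read 4.75 and was not well above background, against 5.64 to 5.69 in the other 3 WT controls, a gap of 0.948 of the group's range. The group of 3 Lcn2-/- controls was not examined in this way.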

How the results depend on the processing

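The number of ADAMTS genes changed by CCl4 was 4 to 6 in WT and 4 to 8 in Lcn2-/- over all alternatives, and 0 for the interaction throughout. The counts between genotypes, which the choice of the genes fixes and from which nothing is read, were 1 under CCl4, and 1 in controls except with the deposited table (2, with Adamts9) and with array weights (4, with Adamts5, Adamts9 and Adamts15). Leaving out 1 array gave 4 to 6 genes in WT, 4 to 7 in Lcn2-/-, 0 for the interaction and 1 for either genotype comparison. With the replicate block the counts were 4 and 6 for the CCl4 responses, 0 for the interaction and 1 for either genotype comparison, and Adamts14 lost its WT call (0.98, limma adjusted p = 0.0521). The block changed no other call of an ADAMTS gene. With slide as a block 4 genes were called in each genotype, Adamts2, Adamts5, Adamts9 and Adamts15. Without both controls closest to CCl4 the counts were 6 and 6.

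Signs turned for 3 CCl4 differences in WT, none of them called in the fit reported above. Adamts13 3891 had no measurable level in WT, so its sign there carries no information. It was -0.38 with 75th percentile scaling, -0.08 with normexp, -0.28 in the deposited table and -0.07 with slide as a block. Leaving out 1 array at a time, it was -0.09 (without WT CCl4 replicate 3) to 0.27. Adamts13 3066 in WT was -0.03 with 75th percentile scaling, and, leaving out 1 array at a time, ran from -0.02 to 0.10, with -0.02 without WT control replicate 1, 0.00 without WT CCl4 replicate 1 and -0.01 without WT CCl4 replicate 2. Adamts4 in WT was -0.12 with slide as a block. The causes were not tested. Scaling to the 75th percentile moved the median of all probes to -0.17 in WT and -0.15 in Lcn2-/-, and 31% and 36.7% of the called probes were then higher, against 49% and 55.5%. The number of arrays and, for the dim probes of Adamts2, Adamts5, Adamts12 and Adamts13, the signal over background limit these results.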
